A study of Mus musculus with 6 samples.

Results

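A set of 10 genes of the antiviral effector arm of the interferon (IFN) response was followed in B cell precursors of the mouse bone marrow at the early LPre-B (large pre-B) stage: the IFIT genes *Ifit1*, *Ifit2*, *Ifit3* and *Ifit3b*, the MX genes *Mx1* and *Mx2*, and *Rsad2*, *Cmpk2*, *Ifi44* and *Bst2*. They were chosen by symbol, and 9 of the 10 had a row among the 13426 genes of the deposited RNA-seq table, with *Ifit3b* as the one without. Early LPre-B cells had been sorted from Ctrl mice (*Upf1* Flox/Flox, *Mb1* +/+) and from Upf1-cKO mice (*Upf1* Flox/Flox, *Mb1* Cre/+), with 3 libraries in each group. The sort took lineage-negative B220+ cells that were CD43+, large by forward scatter, and without surface IgM or CD2. Both groups carried floxed *Upf1* alleles on a C57BL/6 background and were 8 to 16 weeks old, males and females together. Cre was expressed from the *Mb1* (*Cd79a*) locus, which is active in the B lineage, so Upf1-cKO mice also carried an altered *Mb1* allele that Ctrl mice did not. The study describes its data points as independent biological replicates. How many mice went into a library is not given in the sources used here, so p-values measure the spread between these libraries.

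Type I IFN binds a receptor whose kinases JAK1 and TYK2 phosphorylate STAT proteins, STAT2 among them. A complex that holds STAT2 and IRF9 then binds the IFN-stimulated response element (ISRE) in the promoters of IFN-stimulated genes, and the products of those genes act on separate steps of viral growth. IFIT proteins bind viral RNA and block its translation, MX proteins are dynamin-like GTPases, RSAD2 (viperin) makes a chain-terminating nucleotide, CMPK2 is a nucleotide kinase, and BST2 (tetherin) holds budding virions at the cell surface. IFI44 is a cytoplasmic protein with reported antiviral activity.

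Levels are given as normalised reads, which are reads, with 0.5 added, per 1000000 reads of an effective library size that the deposited values imply. Recovered reads totalled between 9732498 and 11006834 per library. *Upf1* itself was not lower in the libraries labelled Upf1-cKO (log2 fold change 0.31, limma adjusted p 0.00696). It stood at 260, 203 and 259 normalised reads in Ctrl and at 308, 283 and 300 in the libraries labelled Upf1-cKO. The call of *Upf1* as higher was lost with median centring (0.20, adjusted p 0.0645) and with eBayes without trend or robust estimation (0.31, adjusted p 0.0685), and without Ctrl library 2 the log2 fold change was 0.19 (adjusted p 0.0358). Only exons 4 to 6 of the gene are floxed, and a count over the whole gene does not resolve them, so directions below follow the labels. *Cd79a*, whose locus carries Cre on 1 allele in Upf1-cKO mice, was at 233.7, 215.5 and 212.6 in Ctrl and at 71.6, 75.2 and 73.0 in the libraries labelled Upf1-cKO (log2 fold change -1.58, limma adjusted p 1.24e-11). Of the 15 progenitor B cell markers listed, all 15 had a row, with summed levels from 3151 to 3449 in Ctrl and from 3558 to 3818 in Upf1-cKO libraries. Among them 7 were higher, *Dntt* (1.64 on the log2 scale) and *Rag1* (1.55) most, and 3 were lower, namely *Cd79a*, *Ptprc* (-0.84) and *Il7r* (-0.61). Neutrophil markers moved with the groups. Their 10 genes summed to 126, 19.1 and 14.6 in Ctrl libraries 1, 2 and 3 and to between 342 and 479 in Upf1-cKO libraries, with 7 of the 10 called higher and 0 lower. *Ly6g*, which defines these cells, had no read in Ctrl libraries 2 and 3. The part of these reads in the results was not tested. Without Ctrl library 1, which stood apart in its group, the gap in these markers between groups was wider, and 8 members were called higher. Of the 9 T and NK cell markers 8 had no row, and the summed levels of the monocyte (65.04 to 112.6), erythroid (7.881 to 12.0) and mature B and plasma cell (81.58 to 92.14) lists overlapped between groups.

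The promoters of the members were searched for the core letters of the DNA element that the complex with STAT2 and IRF9 reads. RefSeq promoter windows (GRCm38.p6, 250 bases before to 50 after a start) were at hand for 8 of the 10 members, with no entry for *Mx1* and *Mx2*. The core ISRE letters, GAAA followed by any 2 bases and GAAA, searched on both strands and counted also where matches overlapped, were found in 5 of the 8, against 3.99% of 27025 genes with a window and 3.73% of 10193 such genes in the table. The stretches that hold them are shown from 5′ to 3′ on the strand of the gene, with matches in capitals. They lie at chr19:34640765-34640833 for *Ifit1*, chr19:34583353-34583436 for *Ifit3*, chr12:26456543-26456592 for *Rsad2* and chr8:71537567-71537622 for *Bst2*. The stretch of *Ifi44* (chr3:151749911-151750010), the last 100 bases before its start, held no match.
Ifit1: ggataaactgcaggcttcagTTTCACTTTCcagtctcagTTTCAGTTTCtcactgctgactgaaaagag
Ifit3: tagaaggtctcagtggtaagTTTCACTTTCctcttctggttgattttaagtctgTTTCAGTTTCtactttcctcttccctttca
Rsad2: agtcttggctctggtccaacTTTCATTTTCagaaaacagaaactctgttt
Bst2: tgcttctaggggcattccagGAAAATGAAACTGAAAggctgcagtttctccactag
Ifi44: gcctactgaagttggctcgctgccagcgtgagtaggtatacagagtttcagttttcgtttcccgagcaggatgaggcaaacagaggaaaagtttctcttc

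*Ifit1* and *Ifit3* each had 2 matches, at 104 and 85 bases and at 156 and 122 bases before the start of the window's transcript, which for *Ifit3* is at 34583529, inside the gene as annotated. *Bst2* had 2 that overlapped in the run of GAAA repeats, at 130 and 124 bases, and *Rsad2* had 1, at 120 bases. The window of *Ifit3b* held the same stretch as that of *Ifit3*. *Cmpk2*, *Ifi44* and *Ifit2*, the last with 2 windows, had none of these letters there. A second element, the STAT-binding GAS core TTCNNNGAA, was found in 2 of the 8 members and in 9.55% of all genes. A match of letters is a description and does not show binding. Only exact letters were searched, so a window without a match was not shown to lack the element.

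Of the 9 members with a row, 8 were higher in Upf1-cKO than in Ctrl libraries at an adjusted p below 0.05 (limma on log2(normalised reads + 1), Benjamini-Hochberg over all genes), 0 were lower, and *Ifit2* did not pass. Among all genes 27.7% were called higher by the same rule. The changes were uneven in size. *Mx2*, *Ifi44* and *Mx1* passed a log2 fold change of 2, which 1.14% of all genes did, and the others lay below it. This count rested on the pseudocount of 1, as with none 6 members passed, beside 523 of all genes. In RNA of sorted cells in bulk, more expressing cells and more RNA per cell cannot be told apart. The median over the 9 was 1.12 on the log2 scale, against 0.01 for all genes. These counts are descriptive, because genes with low levels had been removed before deposition: *Ifit1*, *Ifit3* and *Rsad2* exceeded 0.5 normalised reads in fewer than 3 Ctrl libraries and had their rows through the Upf1-cKO libraries.

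**Figure D1:**
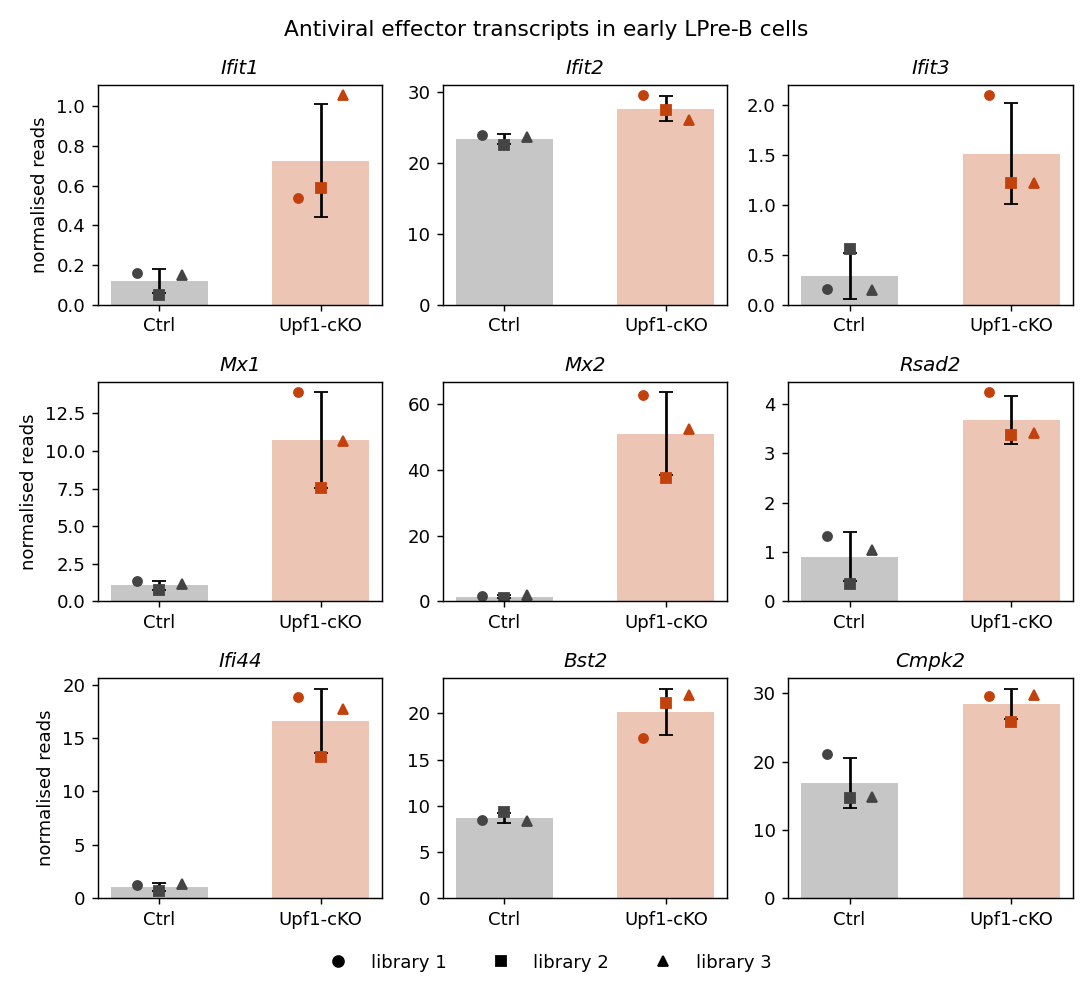
Normalised reads (linear axes starting at 0, a scale of its own in each panel) of the 9 members in 3 Ctrl and 3 Upf1-cKO libraries. Bars are group means, error bars SD, and symbols single libraries; in all 9 panels the lowest Upf1-cKO library lies above the highest Ctrl library, which was so for 30.9% of all genes.

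The MX genes lie on chromosome 16, *Mx1* at 97447035 to 97462906 and *Mx2* at 97536081 to 97560901 (GRCm38), with 73.2 kb between their starts. Both are annotated as transcribed pseudogenes in this reference strain, and C57BL/6 mice are known to lack functional MX proteins. *Mx2* was read at 1.54, 1.06 and 1.84 normalised reads in Ctrl libraries and at 62.7, 37.6 and 52.4 in Upf1-cKO libraries. Means were 1.48 ± 0.392 and 50.9 ± 12.6 (SD, n = 3 each), a ratio of 34.4 and, on the log2(value + 1) scale, a fold change of 4.37 (95% interval 3.97 to 4.76, limma adjusted p 2e-12). It rested on between 10 and 18 reads per Ctrl library and between 416 and 642 reads per Upf1-cKO library.

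*Mx1* rose less. It was at 1.33, 0.758 and 1.14 normalised reads in Ctrl and at 13.9, 7.53 and 10.7 in Upf1-cKO libraries, a ratio of means of 9.945 and a log2 fold change of 2.47 (95% interval 1.996 to 2.94, limma adjusted p 4.19e-08). The intervals of the MX genes did not overlap. Within a library, where scaling cancels, *Mx2* stood at 1.16, 1.40 and 1.61 times *Mx1* in Ctrl and at 4.51, 4.99 and 4.91 times in Upf1-cKO libraries. The log2 difference was 1.80, with an exact two-sided permutation p of 0.1, the smallest that 3 against 3 libraries allow. The longest GENCODE transcripts of both genes aligned over 920 columns at 94.8% identity, but 4.8% of the 50-base words of *Mx1* occurred in *Mx2*, so a read of *Mx1* would seldom match *Mx2* without a mismatch. The share of *Mx2* words that occur in *Mx1* was not counted, and whether reads of *Mx2* were counted for *Mx1* was not tested.

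*Ifi44* (chromosome 3, 151730922 to 151749910) had the second largest change among the members. It was at 1.22, 0.657 and 1.34 normalised reads in Ctrl and at 18.9, 13.2 and 17.7 in Upf1-cKO libraries. These values correspond to a ratio of means of 15.5 and a log2 fold change of 3.09 (95% interval 2.66 to 3.52, limma adjusted p 8.11e-10). Its neighbouring paralogue *Ifi44l* had no row.

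*Rsad2* (chromosome 12, 26442743 to 26456452) and *Cmpk2* (26469117 to 26479837) are transcribed away from each other, with 12.7 kb between their starts. *Rsad2* was at 1.33, 0.354 and 1.04 normalised reads in Ctrl and at 4.24, 3.38 and 3.41 in Upf1-cKO libraries, a ratio of means of 4.05 and a log2 fold change of 1.33 (SE 0.232, limma adjusted p 9.82e-05). Its Ctrl values rested on 12, 3 and 10 reads, and without the pseudocount of 1 the log2 fold change was 2.22. *Cmpk2* was already read at 21.1, 14.7 and 14.8 in Ctrl and reached 29.6, 25.8 and 29.8 in Upf1-cKO libraries.

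For *Cmpk2* the ratio of means was 1.68 and the log2 fold change 0.73 (SE 0.14, limma adjusted p 0.000231). Ctrl library 1, in which neutrophil markers were highest among Ctrl libraries, also had the highest level of that group for 5 of the 9 members, which were *Cmpk2*, *Rsad2*, *Mx1*, *Ifit1* and *Ifit2*. The 95% intervals of the log2 fold changes, 0.84 to 1.81 for *Rsad2* and 0.44 to 1.03 for *Cmpk2*, overlapped. Within a library, *Rsad2* stood at 0.063, 0.0241 and 0.0702 times *Cmpk2* in Ctrl and at 0.143, 0.131 and 0.115 times in Upf1-cKO libraries. The log2 difference was 1.445, with an exact two-sided permutation p of 0.1, the smallest possible here. *Rsad2* had few Ctrl reads and its row through the Upf1-cKO libraries.

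*Bst2* (chromosome 8, 71534255 to 71537472) was at 8.45, 9.35 and 8.39 normalised reads in Ctrl and at 17.3, 21.1 and 22.0 in Upf1-cKO libraries. Its ratio of means was 2.31 and its log2 fold change 1.12 (SE 0.144, limma adjusted p 3.41e-06). BST2 is also a surface marker of plasmacytoid dendritic cells. Of the 12 other markers of that cell listed, 9 had a row. Of these 4 were called higher, *Tlr7* (2.26 on the log2 scale, limma adjusted p 5.14e-08), *Ly6d* (1.72), *Cox6a2* (0.90) and *Ccr9* (0.80), and 1, *Spib*, was lower (-1.54). *Siglech*, which defines these cells, was between 0.248 and 0.657 normalised reads in Ctrl and between 0.496 and 0.9695 in Upf1-cKO libraries and was not called (limma adjusted p 0.175). The part of such cells in the *Bst2* value was not tested.

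The IFIT genes lie side by side on chromosome 19, from *Ifit2* (34550550 to 34576534) through *Ifit3* (34583119 to 34588982) and *Ifit3b* (34607530 to 34613403) to *Ifit1* (34640889 to 34650009). Apart from *Ifit2*, they were near the limit of detection. *Ifit1* had 1, 0 and 1 reads in Ctrl libraries and 5, 6 and 12 reads in Upf1-cKO libraries. Pooled over libraries, this was 2 against 23 reads, a ratio of 10.2 per effective library size with an exact 95% interval from 2.515 to 89.05 that covers counting error only.

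The call for *Ifit1* was the least stable among the members. Its log2 fold change was 0.61 (SE 0.219, limma adjusted p 0.0249), and it did not pass without Ctrl library 2 (adjusted p 0.069), without Upf1-cKO library 3 (0.116), with median centring (0.0585) or with quantile normalization (0.0666). In edgeR on the recovered reads the log2 fold change was 3.13 (adjusted p 0.00799). The locus overlaps *Ifit1bl1* in the annotation, and reads were mapped without strand, so reads of these genes could not be fully assigned.

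*Ifit3* had 1, 5 and 1 reads in Ctrl and 21, 13 and 14 in Upf1-cKO libraries, or 0.159, 0.556 and 0.149 against 2.10, 1.22 and 1.22 normalised reads. The log2 fold change was 0.96 (SE 0.23, limma adjusted p 0.00178) with the pseudocount of 1 and 2.63 without it, and the pooled ratio was 6.07, with an exact 95% interval from 2.73 to 15.9. Transcripts of *Ifit3* and *Ifit3b* aligned at 97.8% identity, and 51.2% of the 50-base words of *Ifit3* occurred in *Ifit3b*, so reads of these genes could not be fully told apart.

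*Ifit2*, at a higher level than the others in Ctrl libraries, was read at 24.0, 22.6 and 23.6 in Ctrl and at 29.5, 27.5 and 26.0 in Upf1-cKO libraries. The groups did not overlap, which was so for 30.9% of all genes in this direction (28.0% in the opposite one), but the log2 fold change of 0.23 had a 95% interval from -0.00049 to 0.47 and did not pass (limma adjusted p 0.0869). It passed when libraries were scaled to total reads (0.43, adjusted p 0.00414), a scaling that moved the median of all genes from 0.01 to 0.19. Within a library, *Ifit3* stood at 0.00665, 0.0246 and 0.00632 times *Ifit2* in Ctrl and at 0.0711, 0.0443 and 0.047 times in Upf1-cKO libraries. The log2 difference was 2.39, with an exact two-sided permutation p of 0.1, the smallest possible here. It rested on 1, 5 and 1 reads of *Ifit3* in Ctrl, a gene that had its row through the Upf1-cKO libraries. Whether the change of *Ifit2* differed from that of *Ifit1* was not tested. The paralogues *Ifit1bl1* and *Ifit1bl2*, in the same cluster, stood at 1.96 ± 0.459 and 0.82 ± 0.171 normalised reads in Upf1-cKO libraries (SD, n = 3). Both passed the test, *Ifit1bl1* at a log2 fold change of 0.76 with overlapping groups (limma adjusted p 0.0178) and *Ifit1bl2* at 0.62 without overlap (adjusted p 0.0223).

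**Figure D2:**
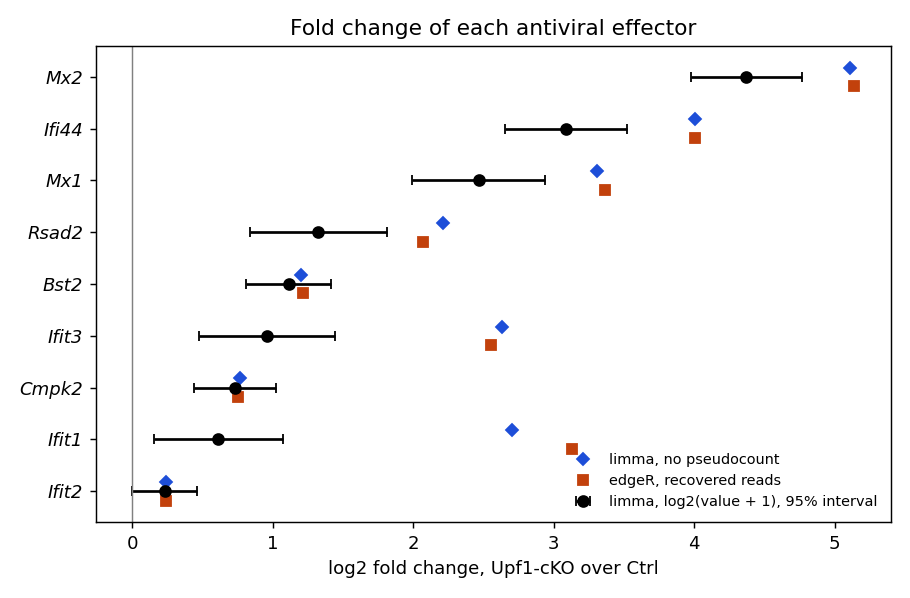
Log2 fold changes (Upf1-cKO over Ctrl) of the 9 members, ordered by limma on log2(value + 1), with 95% intervals as bars; diamonds are limma without a pseudocount and squares edgeR on recovered reads. *Mx2* is highest in each fit, while *Ifit1* and *Ifit3* shift most to the right without the pseudocount, *Ifi44*, *Rsad2*, *Mx1* and *Mx2* shift by less, and *Ifit2*, *Cmpk2* and *Bst2* hardly move.

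The order of the members by level was compared per kilobase of annotated exon. In Ctrl libraries *Bst2* (9.665 ± 0.594 normalised reads per kb, SD, n = 3), *Ifit2* (5.95 ± 0.181) and *Cmpk2* (4.05 ± 0.876) stood apart from the remaining 6, which lay between 0.045 and 0.409. Among those, *Mx2*, *Mx1*, *Rsad2*, *Ifi44* and *Ifit3*, in this order, each overlapped the next in range. In Upf1-cKO libraries *Mx2* (14.1 ± 3.50) moved to the second place behind *Bst2* (22.3 ± 2.78) and above *Ifit2* (7.04 ± 0.449) and *Cmpk2* (6.83 ± 0.538), which overlapped. *Mx1* (2.83 ± 0.842) and *Ifi44* (2.71 ± 0.49) followed and also overlapped, and *Ifit3*, *Rsad2* and *Ifit1* stayed below 1 normalised read per kb on average. The order in Ctrl libraries is read with the filter on low values in mind, since a gene low in Ctrl had a row only where enough libraries lay above 0.5.

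The members also differed in how they varied among libraries of a group. In Upf1-cKO libraries, 6 of the 9 were lowest in library 2 and in Ctrl libraries 7 of the 9 were lowest in library 2. In Upf1-cKO library 2, *Mx1*, *Mx2* and *Ifi44* deviated from their group means by -0.419, -0.398 and -0.295 on the log2(value + 1) scale. *Bst2* did not share this and was lowest in Upf1-cKO library 1 and in Ctrl library 3. The summed neutrophil markers were highest in Upf1-cKO library 1 (479), as were *Mx1*, *Mx2*, *Ifi44*, *Rsad2*, *Ifit2* and *Ifit3*, and were lower in library 2 (367) and library 3 (342), whereas *Mx2* was higher in library 3 than in library 2. Whether these reads and the members are linked was not tested.

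**Figure D3:**
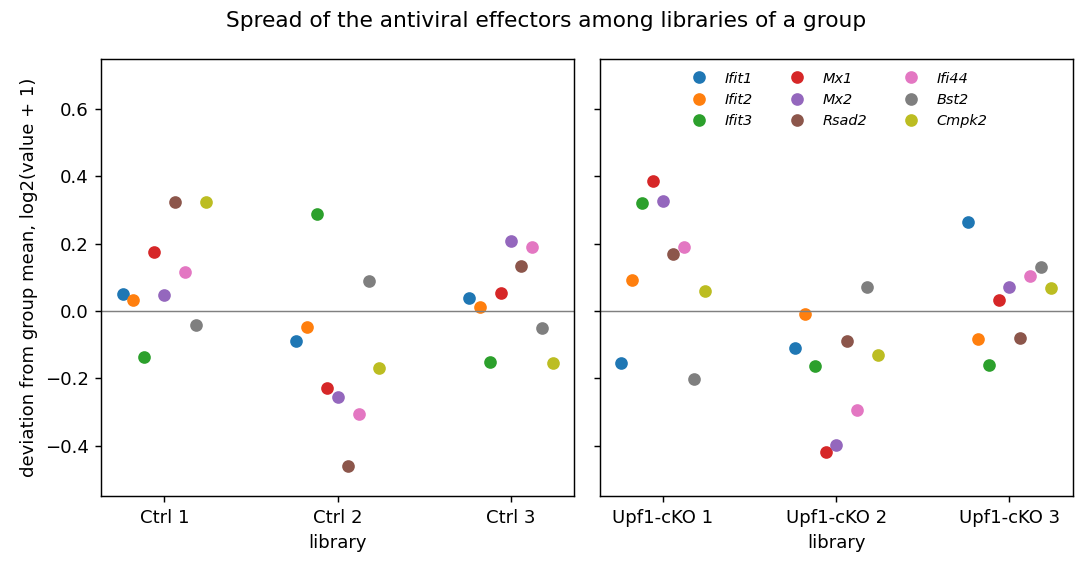
Deviation of each member from its group mean, on the log2(value + 1) scale, in the 3 Ctrl (left) and 3 Upf1-cKO (right) libraries; each point is a gene. Most points of library 2 lie below 0 in both panels, and *Mx1* and *Mx2* lie on the same side of 0 in every library.

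Genes around the members were examined next. Within 100 kb of a member, 17 other genes had a row, of which 9 were higher, 5 lower and 3 not called, beside 27.7% higher and 25.0% lower among all genes. All 5 lower genes were among the 13 neighbours of *Bst2*, 5 of which were higher. *Mvb12a*, the nearest of them with a row on one side, averaged 30.1 ± 2.22 in Ctrl and 36.1 ± 1.31 in Upf1-cKO libraries (SD, n = 3, log2 fold change 0.26, limma adjusted p 0.0441). *Plvap*, the nearest with a row on the other side, was not called (0.03, limma adjusted p 0.943). *Tmem221*, among the higher neighbours of *Bst2*, had its row through the Upf1-cKO libraries, and its groups overlapped (limma adjusted p 0.0443). At the other loci, the 4 neighbours with a row were all higher, of which both IFIT paralogues exceeded 0.5 normalised reads in fewer than 3 Ctrl libraries and had their rows through the Upf1-cKO libraries. The others were *Lipa* (0.49 on the log2 scale, adjusted p 0.00694) and *Rnf144a* (0.44, adjusted p 0.000697). None of the genes between or beside *Mx1* and *Mx2*, among them *Fam3b*, *Bace2* and *Tmprss2*, had a row.

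The upstream pathway was read from a list of 15 signalling genes, of which 14 had a row, 11 were higher and 2, *Jak1* and *Irf3*, lower, beside 27.7% higher and 25.0% lower among all genes. The level of *Stat2* was 46.3 ± 2.20 in Ctrl and 113 ± 7.27 in Upf1-cKO libraries (SD, n = 3 each, log2 fold change 1.26, limma adjusted p 1.22e-09), and that of *Irf9* was 27.5 ± 3.26 and 56.4 ± 6.85 (1.01, adjusted p 6.62e-07). *Irf7*, an IFN-inducible factor that drives IFN genes, went from 3.50 ± 0.861 to 11.3 ± 3.31 (1.43, adjusted p 2e-05), and like *Mx1* and *Mx2* it was lowest in library 2 of the Upf1-cKO group, at 7.71. *Socs3*, an inhibitor of cytokine signalling, had the largest change of the list (1.48, adjusted p 2.98e-05). *Ifnb1*, the gene of IFN-β, had no row.

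Other effectors ranged widely in their changes. Their counts stand beside 27.7% higher among all genes and are descriptive, because 2 of the OAS list, 2 of the GTPases and 5 of the further antiviral genes had their rows through the Upf1-cKO libraries, as above. The list of OAS family genes, whose active enzymes make the activator of RNase L, and of RNase L itself had 9 genes, all with a row, and 8 were higher, with a median log2 fold change of 1.89 and *Oas3* highest at 2.71, before *Oasl1* (2.47) and *Oas2* (2.42). This order rested on the pseudocount, as without it *Oas1g*, which had no Ctrl library above 0.5, stood at 3.82 and *Oas2* at 3.58 against 3.05 for *Oas3*. Of 18 IFN-inducible GTPases (GBP and IRG families) 16 had a row and 16 were higher (14 to 16 over the alternatives, 15 without any 1 library), with a median of 1.27 and *Gbp6* highest at 2.72, before *Iigp1* (2.57) and *Gbp2* (2.44). Of 51 further antiviral genes 50 had a row, 38 were higher, 1 (*Samhd1*, a dNTP hydrolase, -0.85) was lower and 11 were not called, with a median of 0.90. With the pseudocount of 1, *Ddx60* (2.42) and *Ifitm3* (2.30) led that list, and the RNA sensor regulator *Dhx58* followed at 1.91. Without it *Ifitm1* (2.83), which had no Ctrl library above 0.5, stood above *Ddx60* (2.65), and *Dhx58* (2.04) stood below *Isg15* (2.46) among others. With the pseudocount of 1, the highest value of these lists was below that of *Mx2* (4.37) and *Ifi44* (3.09), whereas in edgeR *Oas1g* (4.45) lay above *Ifi44* (4.0035) and below *Mx2* (5.14). The lists and the members share libraries, and the difference between lists was not tested.

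**Figure D4:**
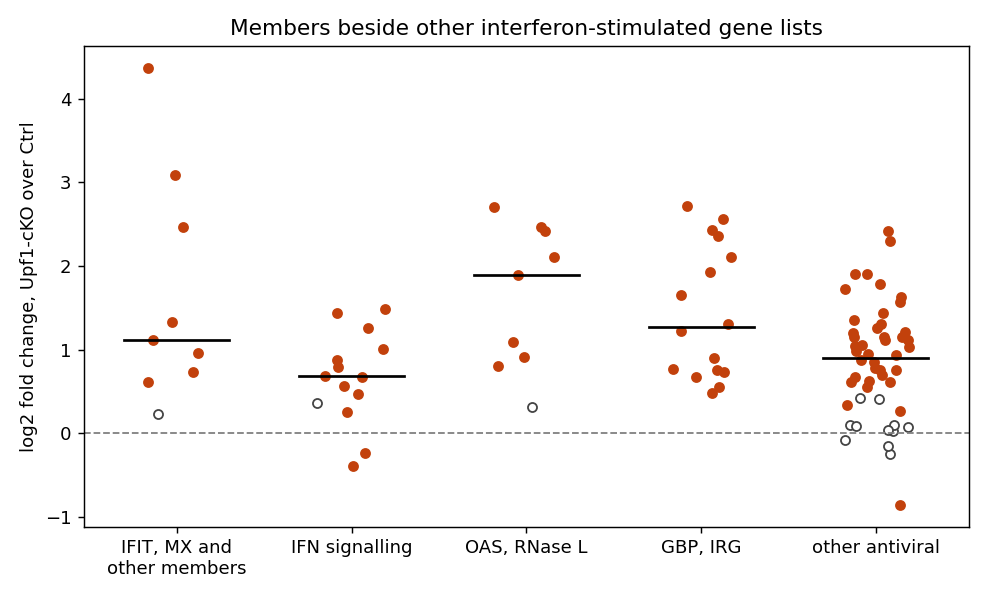
Log2 fold changes (Upf1-cKO over Ctrl, limma) of single genes in the members and 4 other IFN-related lists; filled points passed an adjusted p of 0.05, open points did not, black lines are list medians, and the dashed line is the median of all genes (0.01). Horizontal scatter within a list has no meaning. *Mx2* (4.37) and *Ifi44* (3.09) are the highest points.

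Finally, genes whose levels ran most like those of the members were sought by Pearson correlation, over the 6 libraries, with the mean of the members' standardised log2 values. Among those with the highest values were *Slc12a4* (r = 0.99943), a potassium-chloride cotransporter gene, *Trim30a* (0.99878), itself an IFN-stimulated gene, *Ccar2* (0.99868) and *Arhgap26* (0.99854). Their log2 fold changes were 0.94, 1.31, 0.26 and 0.77. Over 6 libraries in 2 groups such values mostly restate the difference between groups, and the libraries share their scaling. Among the members the correlation with this mean was 0.997 for *Mx1*, *Mx2* and *Ifi44* and lowest for *Ifit3* (0.905) and *Ifit1* (0.913), the members with the fewest reads.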

How the data were processed

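Per the study's methods, total RNA of sorted early LPre-B cells was depleted of ribosomal RNA, sequenced from a single end, aligned to mm10 with HISAT2 as unstranded, and counted with featureCounts (2.0.1 in the submitters' processing notes). The authors deposited a linear signal per Entrez gene and library. Each value equals (reads + 0.5) per 1000000 reads of an effective library size, and whole reads were recovered for 100% of values (tolerance 0.05 reads). In the deposited table every gene exceeds 0.5 in at least 3 libraries. RefSeq (GRCm38.p6) named 13008 of 13426 IDs. Lengths and transcripts came from GENCODE M21.

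On log2(value + 1), which understates changes of low genes, linear models with a group term alone were fitted in limma 3.58.1 (R 4.3.3) with trended, robust eBayes, and p-values of all genes were adjusted together by Benjamini-Hochberg. All adjusted p-values are limma's unless edgeR 4.0.16 or DESeq2 1.42.0 is named. The limma (with and without the block), voom, edgeR and DESeq2 fits were tested on simulated data. The simulation used a fixed dispersion and changed no gene with a low mean. It therefore does not cover calls of genes with few reads, such as *Ifit1* and *Ifit3*. Named genes were the members, *Upf1*, the pathway's transcription factors, 3 genes per list by largest change among those called, paralogues, genes within 100 kb, and the 5 most correlated genes. Some genes that this rule names are not reported here. *Fam3b*, *Bace2*, *Tmprss2*, the marker genes, *Oas1g*, *Ifitm1*, *Isg15*, *Jak1*, *Irf3* and *Samhd1* were picked after their values were seen. So were the within-library ratios of *Mx2* to *Mx1*, *Rsad2* to *Cmpk2* and *Ifit3* to *Ifit2*. The members and lists were chosen with earlier results of these data known. Chi-square divided by its degrees of freedom was 4.4 to 22.16 between libraries of a group, so none were repeats of 1 library. Alternatives were a replicate block, eBayes without trend or robust estimation, voom, edgeR and DESeq2 on recovered reads, median centring, quantile normalization, scaling to total reads, a minimum mean log2 value of 1, pseudocounts of 0.1 and none, and leaving out each library.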

Additional observations from a re-analysis of the deposited data

How the results depend on the processing

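Handling of low values decided how many genes passed a log2 fold change of 2. Among the members, 3 passed in limma with the pseudocount of 1, 5 with a pseudocount of 0.1, and 6 with no pseudocount, voom, edgeR or DESeq2. Over all genes these counts were 153, 426 (pseudocount 0.1), 523 (none), 540 (voom), 511 (edgeR) and 486 (DESeq2). Scaling to total reads lowered the count of lower genes from 3351 to 1936 with the median of all genes at 0.189. The split of called genes then went from 3725 higher and 3351 lower to 5169 and 1936, and to 2992 and 4355 with median centring. The members called higher numbered between 6 and 9 over all alternatives, and 6 only with the minimum of 1, which removed *Ifit1* and *Ifit3* from testing. *Mx2*, *Mx1*, *Ifi44*, *Rsad2*, *Bst2*, *Cmpk2* and *Ifit3* kept direction and stayed under an adjusted p of 0.05 in each alternative that gave them a value.

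Leaving out single libraries gave 3224 to 3643 higher, 2867 to 3350 lower and 141 to 167 genes higher by 2, 7 to 8 members higher, and 3 members higher by 2. In these fits the *Mx2* log2 fold change ran from 4.21 to 4.57. Over all alternatives the genes called higher numbered 10 to 11 for IFN signalling, 7 to 9 for OAS and RNase L, 14 to 16 for the GTPases and 35 to 43 for the further antiviral genes. Replicate numbers are shared by the labels of both groups, but over all genes same-numbered libraries did not deviate together (r = 0.0821, -0.0298 and -0.0208 for replicates 1, 2 and 3), so the numbers were not taken as pairs. Among the 9 members, replicate 2 lay below its group mean for 7 in Ctrl and 8 in Upf1-cKO, and replicate 1 above it for 7 in each group. With the replicate block 8 members, 3668 genes higher and 154 higher by 2 were called, and no call of a member changed.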
